A study of Mus musculus with 6 samples.

Results

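The genes described here encode the ADAMTS proteases, the ADAMTS-like proteins, the matrix metalloproteases (MMPs) and their tissue inhibitors (TIMPs). They were picked by name from a table of RNA counts in mouse hearts: every gene whose symbol begins with Adamts, and every Mmp or Timp symbol followed by a digit, leaving out antisense and pseudogene names. This gave 51 of 35976 genes, made up of 19 ADAMTS proteases, 5 ADAMTS-like genes, 23 MMPs and 4 TIMPs. Levels are in CPM, read counts per 1e+06 counts in the tested genes of a library, with that total scaled by TMM. Of the 51 genes, 42 had a mean of at least 0.2 CPM in a group, and 36 had enough counts to be tested. The member just inside that limit was Mmp13, at 0.237 CPM in controls, and the member just outside was Adamts13, at 0.151 CPM in edited hearts.

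The study compared 2 groups of hearts from wild-type mice, with 3 libraries in each. The edited group had received AAV-MYL2-TadA8e-Sauri-U6-Camk2d sgRNA7. This is an adeno-associated virus in which the MYL2 promoter, active in heart muscle, drives an adenine base editor (the deaminase TadA8e joined to the Cas9 named Sauri), and a U6 promoter drives the guide against a splice site of Camk2d. The control group had no treatment, so virus, editor and edit cannot be told apart. The labels do not give the age of the mice or say that each library is a separate animal, so p-values measure the spread between these libraries, which may be technical.

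The extracellular matrix of the heart is laid down mostly by fibroblasts and is remodelled by secreted and membrane-bound zinc proteases. MMPs cleave collagens, gelatin and many other matrix proteins, ADAMTS proteases trim procollagens and cut proteoglycans such as versican, and ADAMTS-like proteins share the matrix-binding modules of ADAMTS enzymes but have no protease domain. TIMPs are small secreted proteins that bind MMPs and block them, and Timp3 also blocks several ADAMTS and ADAM enzymes.

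Total counts lay between 17062412 and 23097998 per library. Camk2d, the targeted gene, fell in edited hearts (log2 change -0.63, SE 0.08, adjusted p 4.76e-04 in edgeR's quasi-likelihood test), which checks the labels. The markers of heart muscle were present in every library, with summed levels of 63116 to 65329 CPM in controls and 53775 to 57631 CPM in edited hearts, and 3 of 6 were called lower. Controls 1 and 3 stand apart: the 5 atrial markers (Myl7, Nppa, Myl4, Sln and Bmp10) sum to 42.2 and 20.2 CPM there, against 1881 CPM in control 2 and 1164 to 2679 CPM in edited hearts. Bmp10 is at or near 0 in 5 libraries and at 102 CPM in control 2. The count of calls is therefore also given with the atrial transcript Myl7 as a covariate, and without controls 1 and 3. That second fit leaves control 2 as the single control library. Myl7 itself was at 6.88, 332 and 0.209 CPM in controls and at 542, 371 and 914 CPM in edited hearts, so this covariate differs with group. The Myl7 fit therefore also leans on control 2, and the 2 fits are not separate checks. Edited 2 stands apart in other lists. Its 7 smooth muscle and pericyte markers sum to 2223 CPM, against 1447 to 1910 CPM in the other libraries, with 0 of 6 tested called. Its 3 adipocyte markers sum to 7.80 CPM, against 0 to 1.28 CPM elsewhere. The part of such cells in the calls was not tested.

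**Figure D1:**
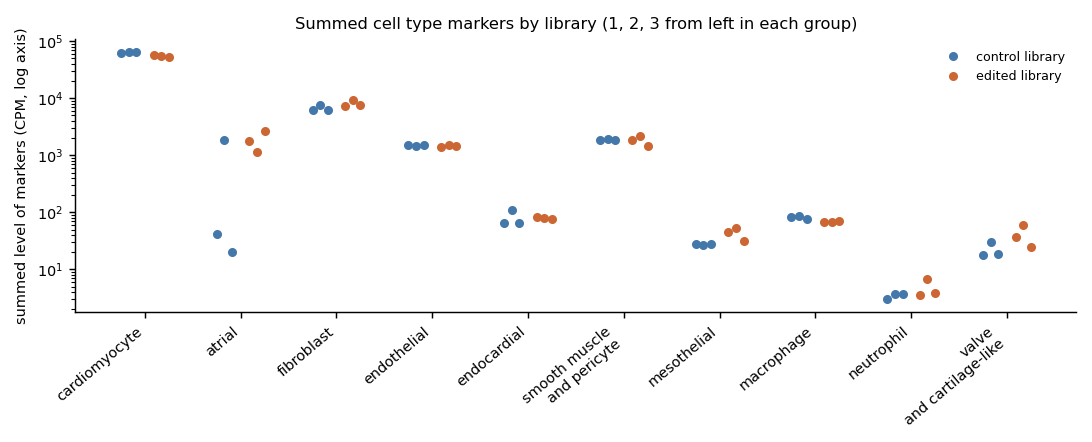
Summed level (CPM, log axis) of the markers of 10 cell types or tissues in each library, with controls in blue and edited hearts in orange. The atrial sum is low in controls 1 and 3 (42.2 and 20.2 CPM) and between 1164 and 2679 CPM in the other 4 libraries, while endothelial sums lie between 1401 and 1506 CPM in all 6.

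Of the 36 tested members, 10 were called higher and 1 lower in edited hearts, at an adjusted p under 0.05 in edgeR's quasi-likelihood test. That is 11 of 36 beside 9.66% of all 14879 tested genes, of which 4.93% were higher and 4.74% lower. The genes called higher were Adamts2, Adamts8, Adamts19, Adamtsl1, Mmp14, Mmp16, Mmp23, Mmp28, Timp2 and Timp3, and the gene called lower was Adamts9. The median log2 change of the tested members was 0.18, beside 0.00 for all tested genes. With Myl7 as a covariate 1 of the 11 calls was left, and without controls 1 and 3 also 1, in each case Adamts8. Over all tested genes the calls went from 1438 to 128 and 82 in these fits. Groups did not overlap for 15 members that were higher and 3 that were lower in edited hearts, beside 14.6% and 14.7% of all tested genes. The number of calls also depended on single libraries: without control 1, 3 members were called higher, without control 3, 1 member, and without edited 3, 4 members. The median log2 change of the members was 0.18, 0.20 and 0.19 in these fits, and calls over all genes went to 781, 386 and 743. In 9 of the 10 genes called higher, control 2 had the highest control level, beside 37.1% of all tested genes in which it did. Edited 2 had the highest edited level in 6 of these 10, beside 37.9% of all tested genes. Each edited library was above control 2 in 18 of the 36 tested members, beside 29.4% of all tested genes, and in the 10 genes called higher, whose choice largely fixes this. A bulk heart sample cannot tell fewer cells of a type from less RNA per cell.

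**Figure D2:**
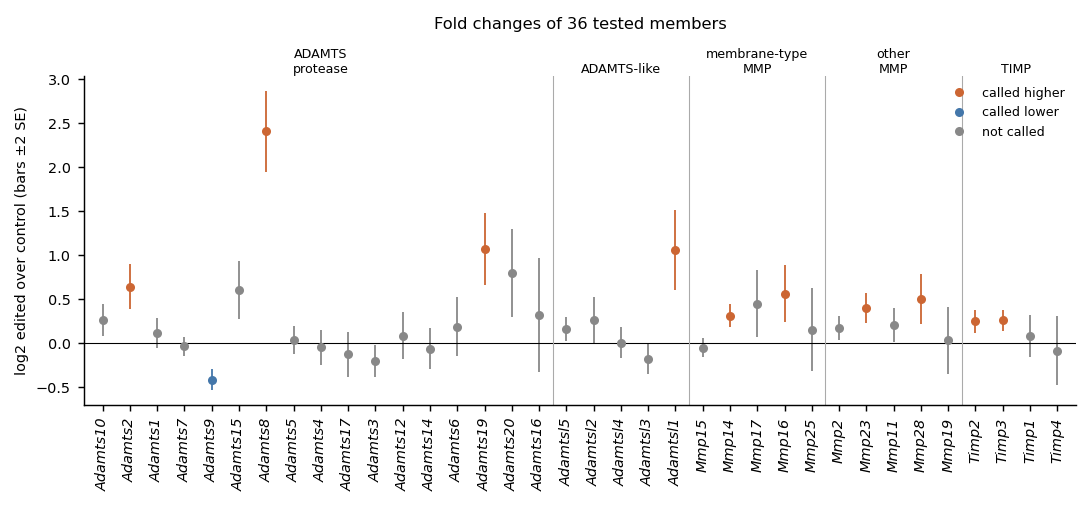
Log2 change, edited over control, of the 36 tested members with bars of 2 SE, ordered by family and by level. Adamts8 has the largest estimate (2.41), Adamts9 (-0.41) is the one called lower, and 25 members were not called.

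Length-scaled levels set the order of abundance, as CPM per kilobase of exon (RPKM). The most abundant members in controls were Mmp15 (66.3 RPKM), Mmp2 (62.1), Timp2 (56.6), Mmp14 (42.6) and Timp3 (33.7), followed at a distance by Adamts10 (20.9), Adamtsl5 (11.4) and Adamts2 (11.2). Mmp15, Mmp2 and Mmp14 together made up most of the MMP signal, with 35.0% ± 1.6, 32.7% ± 1.0 and 22.4% ± 0.80 of its sum in controls (SD, n = 3). Among TIMPs, Timp2 took 56.8% ± 0.20 and Timp3 33.8% ± 0.41 of the sum in controls, and 57.3% ± 1.4 and 34.4% ± 1.1 in edited hearts. Summed over each family, from control to edited hearts, ADAMTS proteases went from 87.0 ± 5.9 to 107 ± 3.7 RPKM (SD, n = 3). ADAMTS-like genes went from 33.2 ± 0.97 to 36.6 ± 3.0 RPKM, MMPs from 189.6 ± 6.9 to 211 ± 11.3 RPKM, and TIMPs from 99.6 ± 6.9 to 117 ± 4.8 RPKM. Control 2 had the highest control sum in each family. Its ADAMTS-like sum lay above that of edited 1 (34.3 against 33.1 RPKM), and its MMP sum just below (196.0 against 198.7 RPKM). The ratio of the TIMP sum to the MMP sum was 0.521, 0.548 and 0.507 in the control libraries, taken in order, against 0.566, 0.552 and 0.555 in the edited ones. These ranges do not overlap, but control 2 is close to edited 2 and edited 3, and no test was run on this ratio.

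**Figure D3:**
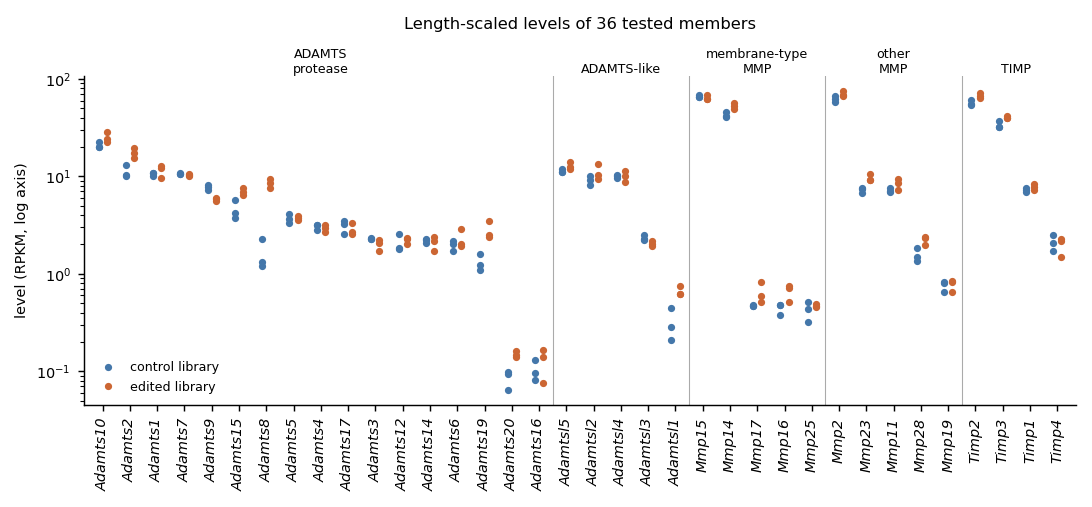
Length-scaled level (RPKM, log axis) of each tested member in each library, controls in blue and edited hearts in orange, ordered by family and by mean level. Mean levels run from 0.114 RPKM for Adamts16 to 66.1 RPKM for Mmp2, and Adamts8 is the member with the widest gap between groups.

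Adamts8 changed most. It encodes a secreted protease with thrombospondin repeats that can cut aggrecan and is counted among the proteoglycan-cleaving ADAMTS enzymes. Its level was 6.10, 10.4 and 5.59 CPM in controls 1, 2 and 3, and 39.0, 35.2 and 43.6 CPM in edited 1, 2 and 3. All edited libraries lie far above all controls, and control 2 is the highest control. The group means were 7.35 ± 2.63 and 39.2 ± 4.20 CPM (SD, n = 3), a log2 change of 2.41 (SE 0.23) or 5.31-fold, with a range of 3.85 to 7.32 at 2 SE and an adjusted p of 0.00431. Against control 2 alone the edited mean was 3.78 times as high, and against the mean of controls 1 and 3 it was 6.71 times as high. The call held in all 15 alternatives: the log2 change was 1.89 with Myl7 as a covariate (adjusted p 4.17e-05) and 1.91 without controls 1 and 3 (adjusted p 0.00123), and the highest adjusted p was 0.0283. The fit without controls 1 and 3 has 1 control library, so its spread comes from the edited libraries alone, and control 2 is assumed to vary as they do. Its length-scaled level moved from 1.59 to 8.50 RPKM, which put it above Adamts9 (7.73 RPKM in controls and 5.81 in edited hearts).

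Adamts15, another proteoglycan-cleaving enzyme, is the neighbour of Adamts8 on chromosome 9. In mm10, Adamts15 spans 30899155 to 30922452 on the minus strand and Adamts8 spans 30942562 to 30963838 on the plus strand, so that they point away from each other across 20109 bases. Adamts15 is named because of this position, after its values were seen. It was at 26.9, 37.1 and 24.1 CPM in controls and at 44.1, 41.3 and 48.6 CPM in edited hearts. The groups do not overlap, but control 2 lies near edited 2, and the log2 change of 0.60 (SE 0.16) was not past the threshold (adjusted p 0.0761). It was called without control 2 (adjusted p 4.73e-04), by DESeq2 (1.13e-04) and by voom (0.0245), and with Myl7 as a covariate its log2 change was 0.25 (adjusted p 0.313).

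Adamts9, which cleaves versican and is needed for normal heart development, was the member that fell. It lies on chromosome 6 (92772699 to 92944047, minus strand) and was at 66.8, 62.8 and 69.2 CPM in controls and at 51.5, 48.1 and 49.8 CPM in edited hearts. Each edited library is below each control, and the spread within either group is small: 66.3 ± 3.26 against 49.8 ± 1.70 CPM (SD, n = 3). Its log2 change of -0.41 (SE 0.06, adjusted p 0.00109) left 75.2% of the control level. Leaving out any 1 library kept the call. With Myl7 as a covariate the log2 change was -0.33 (adjusted p 0.0846), and without controls 1 and 3 it was -0.34 (adjusted p 0.169).

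The other enzymes of the proteoglycan-cleaving group were not called. Adamts1, Adamts4 and Adamts5, of which Adamts5 and Adamts4 are the best known aggrecanases, had log2 changes of 0.12, -0.05 and 0.04, with SE of 0.09, 0.10 and 0.08. Adamts1 and Adamts5 are also neighbours, 55043 bases apart on chromosome 16. Adamts20 was scarce, at 0.78 to 1.20 CPM in controls and 1.70 to 1.96 CPM in edited hearts. These ranges do not overlap, and the adjusted p was 0.0590. Of the 7 members of this group, 1 was therefore higher and 1 lower, and the 2 called genes moved in opposite directions.

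Versican (Vcan), the main large proteoglycan of the developing heart and a substrate of several of these enzymes, rose. It was at 63.1, 64.0 and 56.2 CPM in controls and at 92.0, 89.4 and 74.0 CPM in edited hearts. The lowest edited library, edited 3, is above the highest control. Vcan had a log2 change of 0.48 (SE 0.08, adjusted p 0.00463), and of 0.40 with Myl7 as a covariate (adjusted p 0.168).

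Adamts2 encodes the main enzyme that removes the amino-terminal propeptide of fibrillar procollagens, on chromosome 11 (50602085 to 50807573, plus strand). Its level was 74.4, 95.2 and 75.1 CPM in controls and 113, 144 and 126 CPM in edited hearts. Control 2 is the highest control, and all edited hearts are above it. The log2 change was 0.64 (SE 0.13, adjusted p 0.0255), from 81.5 ± 11.8 to 128 ± 15.8 CPM (SD, n = 3). Leaving out control 1 (adjusted p 0.0821) or control 3 (0.0912) ended this call, as did leaving out edited 2 (0.0544) or edited 3 (0.0585), and with Myl7 as a covariate the log2 change was 0.46 (0.186). Adamts3 and Adamts14, related enzymes of the same group, had log2 changes of -0.20 (SE 0.09) and -0.06 (SE 0.12) and were not called. The 7 fibroblast markers, whose cells make these procollagens, sum to 6166 to 7780 CPM in controls and 7292 to 9301 CPM in edited hearts, with 1 of 7 called higher; their part in the change of Adamts2 was not tested.

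Adamts19, mutated in inherited heart valve disease, rose as well. It lies on chromosome 18 (58836144 to 59053682, plus strand) and was at 13.6, 17.4 and 11.9 CPM in controls and at 27.0, 25.8 and 37.6 CPM in edited hearts. All edited libraries are above control 2, and edited 3 is the highest. Adamts19 had a log2 change of 1.07 (SE 0.21, adjusted p 0.0311). It was not past the threshold when control 1 or control 3 (adjusted p 0.119 and 0.0928) or edited 1 or edited 2 (0.0820 and 0.0568) was left out, without a filter (0.0759) and with the replicate number as a block (0.0858), and the log2 change was 0.72 with Myl7 as a covariate (0.133). The 6 valve and cartilage-like markers sum to 17.8, 30.7 and 18.4 CPM in controls and 37.6, 59.6 and 25.2 CPM in edited hearts, with 1 of 5 tested called higher and Col2a1 under 0.6 CPM in every library. Edited 2 is the highest library for these markers and the lowest edited library for Adamts19, and their part in its change was not tested.

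The other ADAMTS proteases showed smaller differences. Adamts10, which binds fibrillin microfibrils and is the most abundant ADAMTS gene here, was at 100.2, 114 and 99.97 CPM in controls and at 114, 144 and 120.2 CPM in edited hearts. Control 2 and edited 1 coincide, and the log2 change was 0.27 (SE 0.09, adjusted p 0.0962). It was called by DESeq2 (0.0309), by voom (0.0295), with the replicate block (0.0213), without a filter (0.00140) and without edited 1 (0.0318). Adamts7 and Adamts12, which cleave cartilage oligomeric matrix protein, had log2 changes of -0.03 (SE 0.05) and 0.09 (SE 0.13). Adamts6, Adamts16 and Adamts17 were not called, and Adamts18, with 3 to 7 counts per library, was not tested. Adamts13, the liver enzyme that cuts von Willebrand factor, had 0 to 4 counts.

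Among ADAMTS-like genes, Adamtsl1 was the one called. It encodes punctin, a matrix glycoprotein, and lies on chromosome 4 (85513234 to 86428390, plus strand). Its level was 2.39, 5.11 and 3.24 CPM in controls and 6.99, 7.01 and 8.54 CPM in edited hearts. Control 2 is again the highest control, below all edited hearts. The log2 change was 1.06 (SE 0.23, adjusted p 0.0171), but 0.65 with Myl7 as a covariate (0.311), and the call was lost without control 3 (0.118) or edited 3 (0.0597). The more abundant members did not pass: Adamtsl5 had a log2 change of 0.16 (SE 0.07, adjusted p 0.167), Adamtsl2, which binds fibrillin and latent TGF-beta binding protein, 0.26 (SE 0.14, 0.291), and Adamtsl4 0.01 (SE 0.09). Adamtsl3 was lower in each edited heart than in each control, at a log2 change of -0.18 (SE 0.09, adjusted p 0.208).

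**Figure D4:**
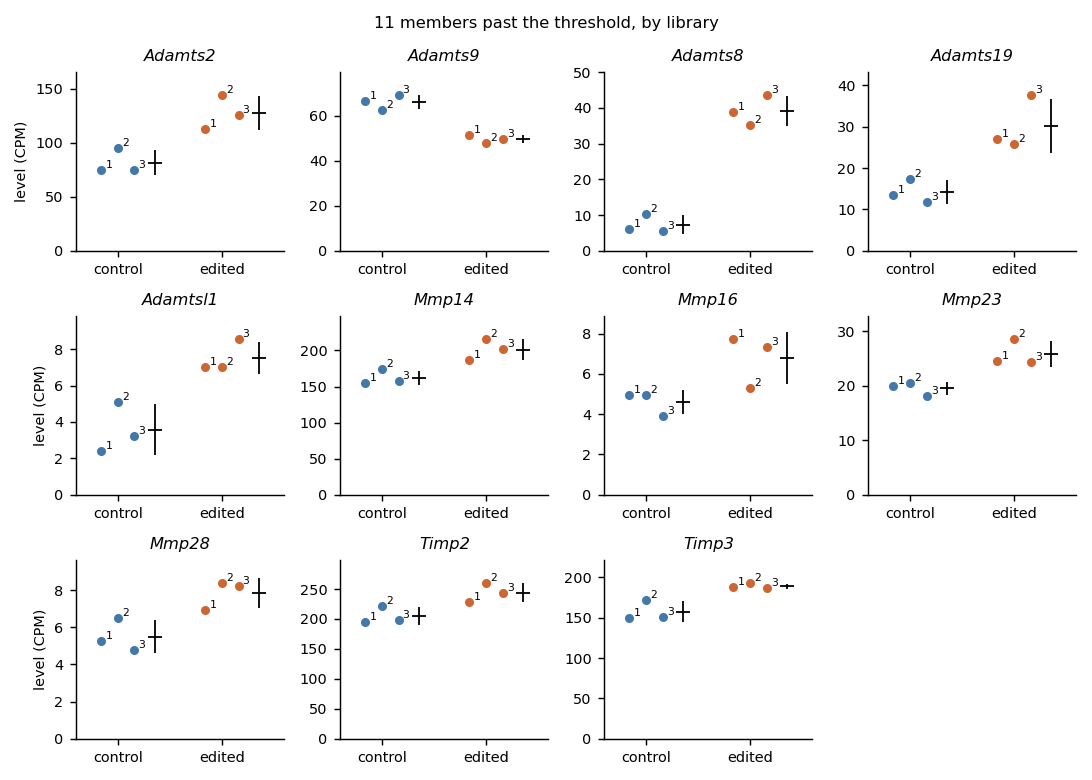
Level (CPM, axis from 0) of the 11 called members in each library, numbered by replicate, with the group mean and SD in black (n = 3). In 9 of the 10 genes called higher control 2 is the highest control.

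Mmp14 encodes the membrane-bound MMP that activates the Mmp2 proenzyme with the help of Timp2. It lies on chromosome 14 (54431598 to 54442456, plus strand) and was at 155, 174 and 157 CPM in controls and at 187, 215 and 201 CPM in edited hearts. The groups do not overlap, and the log2 change was 0.31 (SE 0.06, adjusted p 0.00825). Leaving out control 1 or control 3 ended the call (0.0514 and 0.0755). Timp2, on chromosome 11 (118301061 to 118355411, minus strand), was at 194, 222 and 199 CPM in controls and at 228, 259.8 and 244 CPM in edited hearts. Edited 1 lies just above control 2. Its log2 change was 0.25 (SE 0.06, adjusted p 0.0262), and it was not called without control 1, control 3 or edited 3 (0.125, 0.152 and 0.0900). Mmp2, the third gene of this trio and the main gelatinase of the heart, was at 185, 212 and 200.5 CPM in controls and at 212, 244 and 219 CPM in edited hearts. Control 2 and edited 1 are nearly equal, and the log2 change of 0.17 (SE 0.07) was not past the threshold (adjusted p 0.118). In all 3 genes control 2 is the highest control and edited 2 the highest edited heart. With Myl7 as a covariate their log2 changes were 0.24, 0.17 and 0.14 for Mmp14, Timp2 and Mmp2, none of them called.

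Mmp15, a close relative of Mmp14 and the most abundant membrane-type enzyme, was not called. It was at 282, 281 and 296 CPM in controls and at 266, 272 and 294 CPM in edited hearts, with overlapping groups. The log2 change was -0.05 (SE 0.06, adjusted p 0.658), with a range of 0.895 to 1.04 in fold at 2 SE. Mmp16, a scarcer membrane-type enzyme on chromosome 4 (17852893 to 18123739, plus strand), was at 4.96, 4.95 and 3.92 CPM in controls and at 7.72, 5.32 and 7.32 CPM in edited hearts. Edited 2 is close to controls 1 and 2, and the log2 change was 0.57 (SE 0.16, adjusted p 0.0441). This call was lost without any 1 library except edited 2 (adjusted p 0.0692 to 0.221), by DESeq2 (0.0820) and with the replicate block (0.0694). Mmp17 and Mmp25, which are held to the membrane by a lipid anchor, had log2 changes of 0.45 (SE 0.19) and 0.16 (SE 0.24) and were not called.

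Mmp24 was at or below 3 counts in 5 libraries and had 29 counts in edited 1. It met the limit of 0.2 CPM through edited hearts alone, was left out of the test by the filter, and was called when no filter was used (adjusted p 0.0143). That value rests on 1 library, and 14.8% of the exon bases of Mmp24 are shared with a gene on the opposite strand. The proteoglycan genes Ncan and Bcan were also highest in edited 1. Ncan was at 8.32 CPM there, against 0.0522 to 0.396 CPM in the other libraries. Bcan was at 5.16 CPM, against 0.313 to 0.503 CPM. Whether these values share a source with that of Mmp24 was not tested.

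Of the remaining MMPs, Mmp23 and Mmp28 rose. Mmp23, which is anchored by its amino-terminal end and cut free by proprotein convertases, lies on chromosome 4 (155650655 to 155654539, minus strand). It was at 19.9, 20.5 and 18.2 CPM in controls and at 24.6, 28.6 and 24.5 CPM in edited hearts, clear of the controls in each library. The log2 change was 0.40 (SE 0.08, adjusted p 0.00861), and the call was lost without control 3 (0.0757). Mmp23 shares 2.62% of its exon bases with Mib2 on the same strand. Mmp28, or epilysin, on chromosome 11 (83440768 to 83463040, minus strand), was at 5.26, 6.48 and 4.75 CPM in controls and at 6.91, 8.37 and 8.21 CPM in edited hearts. Edited 1 is close to control 2, and the log2 change was 0.50 (SE 0.14, adjusted p 0.0398). It did not pass with either control 1 or control 3 left out (0.128 and 0.202), with edited 2 or edited 3 left out (0.0754 and 0.134), or by DESeq2 (0.0856). A further limit for Mmp28 is that 13.4% of its exon bases overlap an opposite-strand gene, and the labels do not say whether strand was used in counting. Markers of the mesothelium, the epithelium-like cover of the heart, moved too. The 7 of them sum to 27.3 to 28.2 CPM in controls and 30.9 to 53.1 CPM in edited hearts, with 5 called higher and 1 lower, and their part in these changes was not tested. Mmp11, or stromelysin-3, had a log2 change of 0.21 (SE 0.10, adjusted p 0.198), and Mmp19 one of 0.03 (SE 0.19); 25.7% of the exon bases of Mmp19 are shared with Tmem198b.

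Timp3, the inhibitor that binds to the matrix, rose beside Timp2. It lies on chromosome 10 (86300412 to 86349505, plus strand) and was at 149, 172 and 151 CPM in controls and at 188, 193 and 186 CPM in edited hearts. The edited libraries are close together and above control 2. The log2 change was 0.26 (SE 0.06, adjusted p 0.0158), and the call was lost without control 1 (0.0812), control 3 (0.113) or edited 3 (0.0570). Timp1, the inhibitor best known for its induction by injury and inflammation, was at 6.82, 6.21 and 6.42 CPM in controls and 6.40, 6.84 and 7.43 CPM in edited hearts, with a log2 change of 0.08 (SE 0.12). Timp4, known for its expression in the heart, was at 3.23, 4.63 and 3.92 CPM in controls and 4.05, 2.77 and 4.30 CPM in edited hearts, at a log2 change of -0.08 (SE 0.20). Both overlapped between groups.

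**Figure D5:**
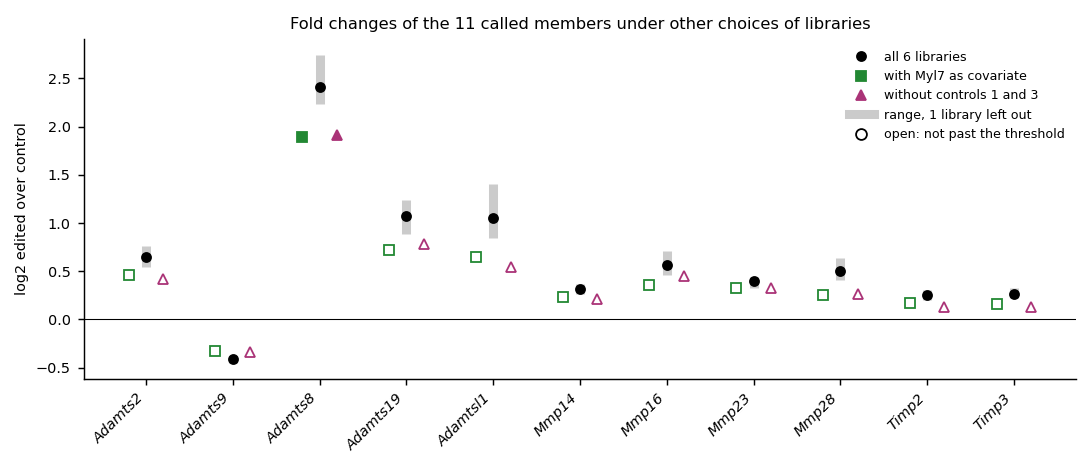
Log2 change of the 11 called members with all 6 libraries (circles), with Myl7 as a covariate (squares) and without controls 1 and 3 (triangles); grey bars span the values with 1 library left out, and open symbols are not past the threshold. Adamts8 is the gene with filled symbols in all 3 settings, and no estimate changes sign.

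The MMPs linked to inflammation and tissue injury were nearly silent. Mmp9, the neutrophil gelatinase, had 7 to 12 counts per library, Mmp8 1 to 8, Mmp13 0 to 5, Mmp12 0 to 7 and Mmp3 0 to 5. No count was found in any library for Mmp1a, Mmp1b, Mmp7, Mmp10, Mmp20 and Mmp21. For a gene with 0 counts in the 114035144 counts of all 6 libraries, levels up to 0.0263 CPM (3 counts) are allowed by counting error. Mmp8, Mmp12 and Mmp24 met the limit of 0.2 CPM through edited hearts alone and Mmp13 through controls alone, so no direction is read from them. The summed level of 8 neutrophil markers was 2.99 to 3.71 CPM in controls and 3.62 to 6.67 CPM in edited hearts. Ly6g was at 0 in every library, and 0 of 3 tested neutrophil markers were called. The 6 macrophage markers sum to 75.1 to 85.3 CPM in controls and 67.0 to 70.6 CPM in edited hearts, with 0 of 6 called.

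Most of these silent genes sit side by side on chromosome 9, in a cluster of 10 MMP genes from Mmp13 to Mmp7. Start sites were taken from RefSeq (GRCm38.p6, the assembly called mm10). Windows of 300 bases, from 250 before to 50 after a start, were found for 36 of 51 members and searched on both strands for the AP-1 motif TGACTCA, the TATA box TATAAA and the GC box GGGCGG, motifs chosen after the sequences were seen. AP-1 and TATA motifs stood together in 7 of the 12 windows of the cluster (58.3%, 1 in each of 7 genes), in 0 of 23 windows of tested members, and in 0.941% of all 32851 windows. A GC box was in 19 of 23 windows of tested members (82.6%) and in 0 of 12 windows of the cluster, beside 35.7% of all windows. All windows include those of genes too scarce here to be tested. The share over windows of all tested genes was not computed, so 82.6% is not shown to be particular to these families. These matches describe sequence and not binding.

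The 120 bases before the start of 3 cluster genes show the AP-1 and TATA motifs in capitals, 5′ to 3′ on the gene's strand. These stretches are chr9:7272394-7272513, chr9:7445702-7445821 and chr9:7502222-7502341, all on the plus strand.
Mmp13: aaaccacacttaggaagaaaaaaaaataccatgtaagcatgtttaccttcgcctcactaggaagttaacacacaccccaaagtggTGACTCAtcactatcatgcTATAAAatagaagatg
Mmp3: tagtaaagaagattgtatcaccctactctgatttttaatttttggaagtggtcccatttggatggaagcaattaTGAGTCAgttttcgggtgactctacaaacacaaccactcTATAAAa
Mmp10: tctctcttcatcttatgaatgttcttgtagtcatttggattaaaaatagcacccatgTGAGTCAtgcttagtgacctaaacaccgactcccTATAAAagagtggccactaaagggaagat
In Mmp13 the AP-1 motif begins 35 bases before the RefSeq start and the TATAAA match 16 bases before it. The places are 46 and 7 in Mmp3, and 63 and 29 in Mmp10. Whether these matches act as TATA boxes from there was not tested.

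For 5 of the 10 genes called higher, chosen for display, the same 120 bases hold GC boxes and neither of the other motifs. The boxes are shown in capitals on either strand (CCGCCC where the motif is on the opposite one). These 5 stretches lie at chr14:54431478-54431597 (plus) for Mmp14, chr11:118355412-118355531 (minus) for Timp2, chr10:86300292-86300411 (plus) for Timp3, chr11:50601965-50602084 (plus) for Adamts2 and chr11:83463041-83463160 (minus) for Mmp28.
Mmp14: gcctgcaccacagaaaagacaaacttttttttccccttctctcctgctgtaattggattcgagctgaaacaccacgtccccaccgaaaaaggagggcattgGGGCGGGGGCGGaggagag
Timp2: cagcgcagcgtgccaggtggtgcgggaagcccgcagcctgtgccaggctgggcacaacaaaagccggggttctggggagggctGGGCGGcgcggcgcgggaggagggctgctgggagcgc
Timp3: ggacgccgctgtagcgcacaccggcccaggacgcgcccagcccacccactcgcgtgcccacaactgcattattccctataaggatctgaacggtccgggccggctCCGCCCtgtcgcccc
Adamts2: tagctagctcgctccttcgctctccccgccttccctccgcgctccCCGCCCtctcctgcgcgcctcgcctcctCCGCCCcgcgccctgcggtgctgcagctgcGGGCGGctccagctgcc
Mmp28: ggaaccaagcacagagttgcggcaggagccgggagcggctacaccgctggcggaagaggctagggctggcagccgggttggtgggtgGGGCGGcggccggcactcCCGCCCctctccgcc
Mmp14 holds 2 GC boxes in this stretch, Timp2 and Timp3 1 each, Adamts2 3 and Mmp28 2. Mmp23, which also rose, has a GC box in its window, and no window was found for Adamts8. Mmp15, which was not called, also has a GC box in its window, as do most tested members, so the motif does not set the genes that rose apart.

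Genes that work with these families were taken from 6 lists of 53 genes: substrates, procollagen processing, activation of proenzymes, inhibitors and clearance, ADAM proteases, and microfibril partners. Of 45 tested, 5 rose and 1 fell, beside 4.93% and 4.74% of all tested genes, with a median log2 change of 0.12. With Myl7 as a covariate 0 were called higher, and without controls 1 and 3 also 0. Pcsk6, a proprotein convertase of the furin family that activates secreted proenzymes, was the gene that fell, at 141, 141 and 144 CPM in controls and 104, 107 and 111 CPM in edited hearts. The groups lie well apart (log2 change -0.40, SE 0.05, adjusted p 4.73e-04). This call held with Myl7 as a covariate (0.0356) but not without controls 1 and 3 (0.0771). Serpine2, an inhibitor of thrombin and plasminogen activators, was at 45.3, 43.2 and 41.3 CPM in controls and at 55.6, 64.5 and 62.4 CPM in edited hearts. Each edited heart is above each control (log2 change 0.49, SE 0.07, adjusted p 8.86e-04), and with Myl7 as a covariate the adjusted p was 0.0561. Thbs2 and Lrp1, a matrix protein and the receptor that takes it up together with bound MMPs, had log2 changes of 0.31 (SE 0.07, adjusted p 0.0182) and 0.41 (SE 0.10, 0.0446). Fbn1, the fibrillin to which ADAMTS-like proteins bind, rose by 0.28 on the log2 scale (SE 0.06, 0.0114). The calls of these 3 were lost without control 1 (0.0776, 0.126 and 0.0679 for Thbs2, Lrp1 and Fbn1) and without control 3 (0.111, 0.148 and 0.0979). Those of Lrp1 and Fbn1 were lost without edited 3 too (0.0513 and 0.0570), and that of Lrp1 without control 2 (0.0517). Of 5 procollagen processing genes and 10 tested ADAM proteases, 0 were called.

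Of the 25 tested members that were not called, 17 had a positive and 8 a negative log2 change, from -0.20 to 0.80. For 20 of them the range at 2 SE stayed within 1.5-fold in either direction, which does not mean that each range held no change. Among these 20, the ranges of Adamts10 (1.06 to 1.36), Mmp2 (1.03 to 1.24), Adamtsl5 (1.02 to 1.23) and Mmp11 (1.01 to 1.32) lay above no change. Those of Adamts3 (0.769 to 0.991) and Adamtsl3 (0.783 to 0.992) lay below it. For Adamts16 and Mmp25 the range held both no change and a change above 1.5-fold. For Adamts15, Adamts20 and Mmp17 it lay above no change and reached past 1.5-fold, at 1.21 to 1.91, 1.24 to 2.46 and 1.05 to 1.78, although their adjusted p missed the threshold.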

How the data were processed

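RNA in 6 libraries of mouse heart (3 edited, 3 control, grouped by their titles) was counted per gene. The submitters' processing notes name build mm10 and the tools FastQC, cutadapt, STAR and featureCounts, with no version or setting. The authors deposited raw counts for 35976 genes, in 2 columns per library that differ in 0 values, so the first was used. Members, lists and the Myl7 setting were chosen with earlier results of these data known.

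Genes were kept by filterByExpr (14879), scaled by TMM and compared with edgeR 4.0.16 (quasi-likelihood, robust, group as the only term, R 4.3.3), with Benjamini-Hochberg adjustment over all tested genes and a threshold of 0.05. SE is the log2 change divided by the square root of its F value. CPM are TMM-scaled, and RPKM use the deposited exon lengths. Lists have counts and medians and no test. Limits from depth cover counting error alone. Libraries of a group differed by more than sampling noise (chi-square per degree of freedom 3.95 to 14.4). The steps were tested on simulated data.

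Members are named with all 6 values if called, among the 2 most abundant of their family or with its smallest p. Alternatives were DESeq2 1.42.0 (size factors, Wald test), upper-quartile scaling, other filters, limma 3.58.1 voom, a replicate block, each library left out, Myl7 as a covariate, and controls 1 and 3 left out.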

Additional observations from a re-analysis of the deposited data

How the results depend on the processing

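None of the called members or partner genes changed direction under any alternative that was run. The number of members called higher (10 with all libraries) was 10 with DESeq2 size factors, upper-quartile scaling, the 1 CPM filter and DESeq2's test, 11 without a filter, 13 with voom and 9 with the replicate block. With 1 library left out it lay between 1 (without control 3) and 10, and it was 1 with Myl7 as a covariate and 1 without controls 1 and 3. The member called lower, Adamts9, was called in every setting other than these last settings, where the number was 0 and 0. Partner genes called higher (5) were 9 without a filter, 8 with the replicate block, and 2 to 8 when a single library was dropped. It was 0 under the Myl7 covariate and 0 without controls 1 and 3. Partner genes called lower (1) were 2 without a filter, 2 with DESeq2's test, 4 with voom, 2 with the replicate block, 1 to 2 with 1 library left out, and 0 without controls 1 and 3. The cause of these shifts was not tested; a fit without controls 1 and 3 has fewer libraries. Without controls 1 and 3, Camk2d had a log2 change of -0.62 (adjusted p 0.0964). The deviations of same-numbered libraries correlated at 0.0039, -0.11 and -0.081, which gave no sign that the replicate numbers pair the libraries. With 3 libraries in each group, these values cannot exclude such pairing. CPM on unscaled totals gave the same 42 described members. Depth limits the scarce MMPs, for which a few counts decide the level.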
